A study of Mus musculus with 12 samples.

Results

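Nuclear factor κB (NF-κB) genes were followed in mouse bone marrow mesenchymal stem cells (MSCs) of the C57BL/6 strain, as 10 genes chosen by symbol: the subunit genes Nfkb1, Nfkb2, Rel, Rela and Relb, and the feedback genes Nfkbia, Nfkbie, Tnfaip3, Birc3 and Traf1. Each of the 10 symbols matched a single row of the 55401 genes in the table. Poly(A) RNA was sequenced from 12 libraries, 3 in each of 4 groups. The groups were untreated MSCs, MSCs given TGF-β1 at 5 ng/mL, and MSCs given the same dose together with the culture supernatant of monocytic (M-MDSC) or of granulocytic (G-MDSC) myeloid-derived suppressor cells. The MSCs came from a commercial supplier, and per the study's methods the MDSCs were derived from bone marrow of the same strain with GM-CSF and IL-6 and sorted by flow cytometry. None of the 4 groups received TGF-β1 with MDSC medium that had held no cells, so that secreted factors and medium cannot be told apart. The libraries held from 73977669 to 84565450 counts. The labels do not say whether the 3 libraries of a group came from separate cultures, so the p-values measure only the spread between these libraries.

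NF-κB is a family of transcription factors that act as pairs of subunits. In resting cells, inhibitor (IκB) proteins such as the products of Nfkbia and Nfkbie hold the pairs in the cytoplasm. Receptors for tumour necrosis factor, interleukin-1 and microbial products activate the IκB kinase complex, the inhibitor is degraded and the pairs enter the nucleus. A separate, noncanonical route runs through the kinase encoded by Map3k14, processing of the Nfkb2 product and Relb. NF-κB induces its own inhibitors, and mRNA levels of such feedback genes are commonly read as a sign of NF-κB activity. In mesenchymal cells the pathway drives chemokine and cytokine genes. mRNA levels do not measure the amount, location or modification of the proteins.

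Expression is given as FPKM, fragments scaled by exon length and by the mapped reads of the library, which allows genes of different length to be compared. Changes are log2 fold changes of the counts from the quasi-likelihood F test of edgeR (two-sided), fitted to all 12 libraries, and Benjamini-Hochberg adjustment ran over the 12016 genes with at least 1 FPKM in at least 3 libraries. A gene was called at an adjusted p-value under 0.05. Of the 10 NF-κB genes, 9 passed the filter, 8 of them with at least 1 FPKM in all 12 libraries. Traf1 stayed under 1 FPKM throughout, with 28 to 276 counts per library, and is given from a fit of the same kind without the filter, over 28622 genes. No test was made over the genes as a set, and the 10 genes were chosen with earlier results of these data known. In the deposited table, on GRCm38, the subunit genes are Nfkb1 (chr3:135584655-135691546, minus strand), Nfkb2 (chr19:46304320-46312385, plus strand), Rel (chr11:23736847-23770970, minus strand), Rela (chr19:5637483-5648130, plus strand) and Relb (chr7:19606217-19629438, minus strand). The feedback genes are Nfkbia (chr12:55489410-55492647, minus strand), Nfkbie (chr17:45555703-45563169, plus strand), Tnfaip3 (chr10:19000910-19015410, minus strand), Birc3 (chr9:7848699-7873170, minus strand) and Traf1 (chr2:34941750-34961597, minus strand).

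The libraries were checked against markers. Of 10 MSC markers, 9 passed the filter, and with TGF-β1 6 were called higher and 3 lower, or 66.7% and 33.3%, against 16.1% and 17.9% of all genes tested. Ly6a, which encodes the MSC surface antigen Sca-1, fell from 245 to 16.2 FPKM, Pdgfra from 14.0 to 4.95 FPKM and Thy1 from 4.49 to 2.16 FPKM, and Ly6a was at 92.5 and 66.9 FPKM with M-MDSC and G-MDSC supernatant. The summed level of the 10 was 1348 to 1380 FPKM in untreated libraries and 1792 to 1979 FPKM in the other groups, most of it from Col1a1, Col1a2 and Itgb1. The part of these marker changes in those of the NF-κB genes was not tested. Of 12 myeloid and leukocyte markers, 6 passed, with a sum of 28.9 to 30.6 FPKM untreated, 15.6 to 17.002 FPKM with TGF-β1, 22.8 to 28.3 FPKM in the M-MDSC supernatant group and 28.4 to 30.9 FPKM in the G-MDSC supernatant group. Most of this sum was Cd14, at 23.0 FPKM untreated, 13.8 FPKM with TGF-β1 and 20.4 and 22.6 FPKM with M-MDSC and G-MDSC supernatant. Of the 6 tested, 3 were called lower and 1 higher with TGF-β1, or 50% and 16.7%, against 17.9% and 16.1% of all genes tested. Cd14 and Lyz2 were called higher with each supernatant, 33.3% against 2.83% and 3.1%. Of the 6, 2 had at least 1 FPKM in all 12 libraries. Ptprc, the common leukocyte antigen, had 0 counts in untreated libraries and at most 4 with TGF-β1 alone. With M-MDSC and G-MDSC supernatant it had at most 16 and 26. Itgam had 0 counts in untreated libraries, at most 1 with TGF-β1 alone, and at most 41 and 42 with the supernatants. Fcgr3 and Adgre1 also had their highest counts with supernatant, at most 27 and 8. Kit and Pecam1 (CD31) were among the surface antigens used in the study to check the MSCs. Kit had 0 counts in the untreated and TGF-β1 libraries, at most 4 in the M-MDSC supernatant group and at most 10 in the G-MDSC supernatant group. Pecam1 had at most 120 counts in any library, and its group mean was lowest in untreated MSCs (0.0838 FPKM) and highest in the G-MDSC supernatant group (0.173 FPKM). Lyz2, the lysozyme gene of myeloid cells, was at 0.0572 ± 0.0502 FPKM with TGF-β1 alone, 1.54 ± 0.828 FPKM in the M-MDSC supernatant group and 1.87 ± 0.281 FPKM in the G-MDSC supernatant group (SD, n = 3 each). Ly6g and Ly6c2, which mark MDSCs but also belong to the Ly6 gene cluster, were highest in untreated MSCs, at 1.83 and 1.71 FPKM. S100a9, a granulocyte protein gene, had 0 counts in the untreated and TGF-β1 libraries, up to 43 in the M-MDSC supernatant group and up to 160 in the G-MDSC supernatant group, with group means of 0.576 and 1.13 FPKM. Its partner S100a8 had at most 4 counts without supernatant and up to 23 and 33 with M-MDSC and G-MDSC supernatant, and both supernatant groups held libraries with none. Whether RNA of other cells contributed to the NF-κB genes was not tested, and in bulk RNA fewer cells of a type and less RNA per cell cannot be told apart.

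Rela, the main activating subunit of the canonical route, had the highest level of the 10 genes, followed by Nfkb2 and, as group means, by Nfkbia or Nfkb1. Over the 12 libraries the median was 29.6 FPKM for Rela, 16.2 FPKM for Nfkb2, 8.27 FPKM for Nfkbia, 6.99 FPKM for Nfkb1, 2.96 FPKM for Tnfaip3 and 2.32 FPKM for Relb. Nfkbie, Rel and Birc3 had medians of 1.79, 1.46 and 1.40 FPKM, and Traf1 one of 0.131 FPKM. Rela thus lay above 86.0% of the genes tested and Birc3 above 11.8%. The 5 subunit genes together were at 63.6 ± 1.96 FPKM in untreated MSCs, 54.7 ± 3.28 FPKM with TGF-β1, 53.8 ± 1.94 FPKM in the M-MDSC supernatant group and 56.6 ± 4.18 FPKM in the G-MDSC supernatant group (SD, n = 3 each).

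Rela made up 53.3 ± 1.64% of the subunit mRNA in untreated MSCs and 54.6 ± 3.81%, 51.6 ± 1.296% and 51.6 ± 2.81% in the TGF-β1, M-MDSC supernatant and G-MDSC supernatant groups. The share of Nfkb2 was between 27.6% and 29.4% as group means, and that of Nfkb1 between 10.8% and 13.6%. Relb is the subunit of the noncanonical pair. Its share was 4.12 ± 0.662% untreated, 2.70 ± 0.269% with TGF-β1, 4.22 ± 0.396% in the M-MDSC supernatant group and 4.34 ± 0.336% in the G-MDSC supernatant group. Rel held between 2.27% and 2.75%. In the plot of subunit shares the order of the 5 genes by group mean was the same in all 4 groups, and Relb and Rel lay closest with TGF-β1 alone, at 2.70% and 2.57%.

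**Figure D1:**
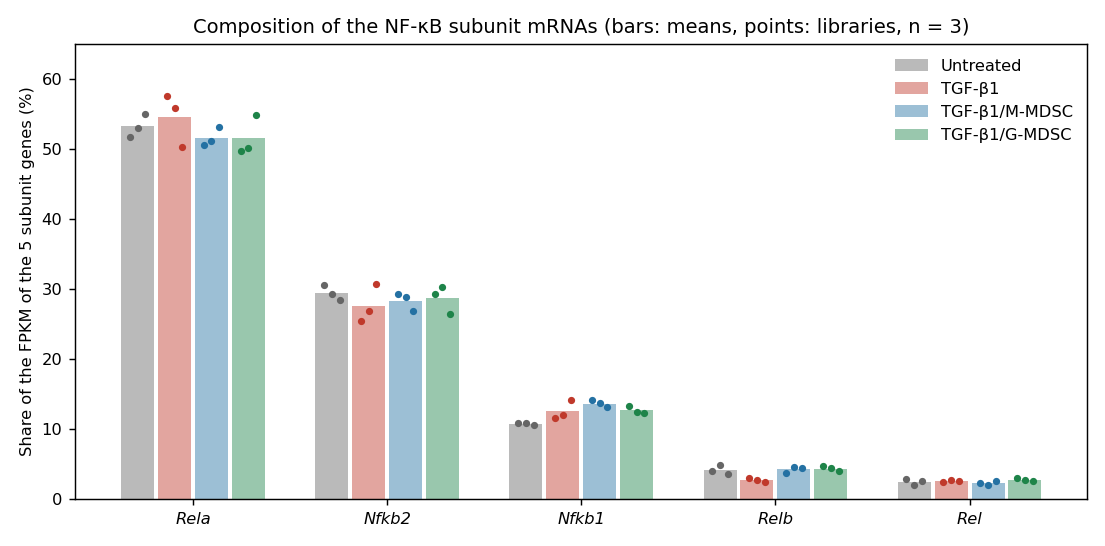
Share of each NF-κB subunit gene in the summed FPKM of the 5 genes (percent, vertical axis), by gene (horizontal axis) and group (colour), with bars for means and points for the 3 libraries. Rela holds between 49.8% and 57.6% in every library, and the share of Relb is 2.70% with TGF-β1 alone and 4.12% to 4.34% in the other groups.

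The first question was how TGF-β1 alone, used in the study to induce myofibroblastic differentiation, changed the genes. Nfkbia, Birc3, Relb and Nfkb2 were called lower than in untreated MSCs, and Traf1, outside the filter, fell the most. These were 4 of the 9 genes tested, or 44.4%, and 0 of the 9 were called higher. Over all genes tested, 34% were called, 17.9% lower and 16.1% higher. The median log2 fold change of the 9 was -0.25, against 0.00048 over all genes tested. At an unadjusted p-value under 0.05 there were also 4, against 42.3% of all genes tested. The study's own rule, a fold over 2 or under 0.5 plus an unadjusted p-value under 0.05, took 0 of the 9 genes in any comparison, and Traf1 met it in the fit without the filter with TGF-β1 and with G-MDSC supernatant. It took 6.74% of all genes tested in this comparison, 2.18% and 2.17% for the M-MDSC and G-MDSC supernatants and 0.549% between them. With TGF-β1 the libraries lay wholly below the untreated ones in FPKM for 5 of the 9, as they did for 30% of all genes tested.

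Nfkbia encodes IκBα, the inhibitor that NF-κB induces most directly. It was at 10.996, 12.2 and 12.1 FPKM in untreated replicates 1, 2 and 3, and at 6.47, 5.53 and 6.00 FPKM in the TGF-β1 replicates. The highest TGF-β1 library was below the lowest untreated library. The log2 fold change was -0.92 (standard error 0.099, edgeR adjusted p = 3.48e-05), and the ratio of the FPKM means was 50.9%.

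Birc3 encodes a ubiquitin ligase of the inhibitor of apoptosis family that acts at TNF receptors and restrains the noncanonical route. Its levels were 2.16, 1.64 and 1.96 FPKM without treatment and 1.07, 1.2001 and 1.14 FPKM with TGF-β1. The groups did not overlap, and the log2 fold change was -0.70 (standard error 0.11, edgeR adjusted p = 0.000537). Traf1, an adaptor of TNF receptors and a widely used NF-κB target, was at 0.362, 0.280 and 0.343 FPKM untreated and at 0.0884, 0.0621 and 0.0330 FPKM with TGF-β1. In counts this was 276, 232 and 274 against 71, 53 and 28. All 3 TGF-β1 libraries were far below the untreated ones, at a log2 fold change of -2.32 (standard error 0.31, edgeR adjusted p = 0.000279, no filter). In that fit without the filter, 14.6% of 28622 genes were called.

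Relb was at 2.48, 3.16 and 2.24 FPKM in untreated MSCs and at 1.70, 1.51 and 1.24 FPKM with TGF-β1. The untreated libraries varied the most, and the TGF-β1 libraries were lower than each of them (log2 fold change -0.76, standard error 0.14, edgeR adjusted p = 0.00183). Nfkb2, the precursor of the partner of Relb, was at 18.8, 19.2 and 18.1 FPKM untreated and 14.6, 14.8 and 15.7 FPKM with TGF-β1. Its change was small, a log2 fold change of -0.25 (standard error 0.056, edgeR adjusted p = 0.00481), and larger than the spread in either group. Nfkb2 overlaps the genes Psd and 4833438C02Rik on the opposite strand by 299 and 1292 bases, and whether the counting used strand is not given in the sources used here. Those genes had at most 784 and 548 counts per library, against at least 5593 for Nfkb2.

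The canonical subunits Rela, Nfkb1 and Rel were not called. Rela had log2 fold change -0.12 (95% interval -0.35 to 0.11), Nfkb1 0.058 (-0.086 to 0.20) and Rel -0.10 (-0.38 to 0.18). Nfkb1 was at 6.84 ± 0.215 FPKM untreated and 6.84 ± 0.343 FPKM with TGF-β1. Nfkbie, which encodes IκBε, was at 2.05, 2.37 and 1.95 FPKM untreated and 1.303, 1.88 and 1.25 FPKM with TGF-β1. These values did not overlap, and the change was not called (log2 fold change -0.47, standard error 0.32, edgeR adjusted p = 0.316).

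Tnfaip3 encodes a ubiquitin-editing enzyme that switches off signalling upstream of the IκB kinases, and in each of the 3 TGF-β1-treated groups it had the highest coefficient of variation of the 10 genes (44.9% to 58.7%), against 10.5% in untreated MSCs. It was at 2.64, 2.73 and 3.20 FPKM in untreated replicates 1, 2 and 3, and at 4.75, 1.96 and 1.78 FPKM with TGF-β1. Replicate 1 of the TGF-β1 group was above, and replicates 2 and 3 were below, all untreated libraries. The log2 fold change was 0.046 (95% interval -1.04 to 1.13, edgeR adjusted p = 0.960), and -0.55 (adjusted p = 0.448) without TGF-β1 replicate 1. The interval thus covers changes of about 2-fold in either direction.

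**Figure D2:**
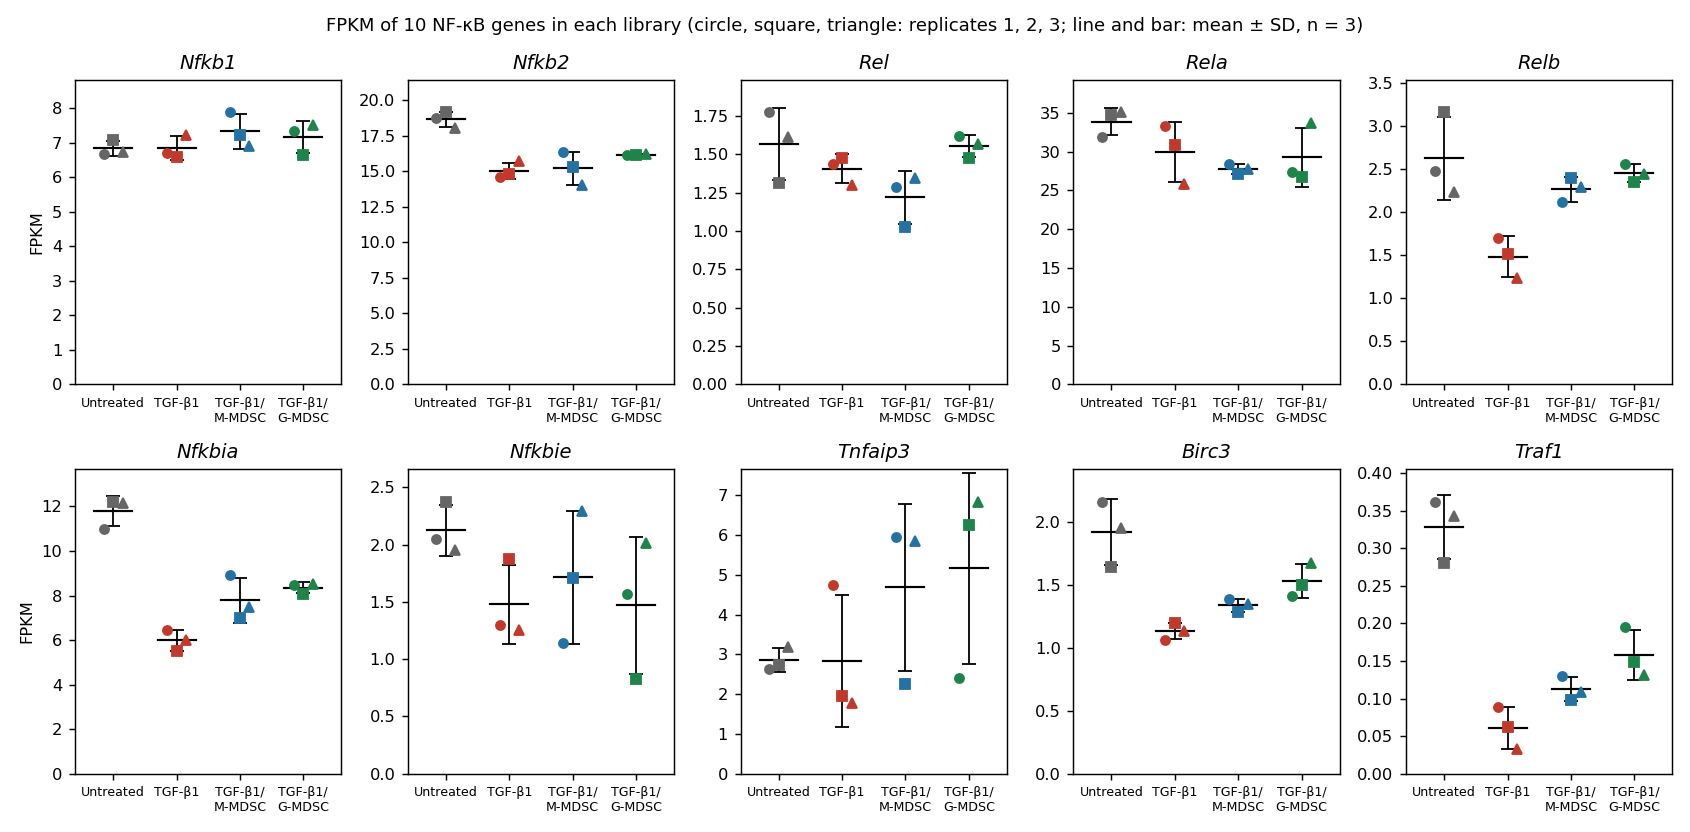
FPKM (vertical axis, from 0) of each of the 10 genes in the 12 libraries, by group (horizontal axis), with a symbol for each replicate number and the mean ± SD (n = 3). For Nfkbia, Relb, Birc3 and Traf1 the TGF-β1 libraries are the lowest and the libraries with either supernatant lie above all of them, while Tnfaip3 is split within each TGF-β1-treated group.

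Promoters were read because NF-κB induces its feedback genes through κB sites near their starts. RefSeq windows of GRCm38.p6, from 250 bases before to 50 bases from the annotated start on, were found for 8 of the 10 genes. Relb and Nfkb1 had none. Each window was searched on both strands for the κB consensus, the 10-base motif that NF-κB pairs bind. Of the 8 genes, 5 held at least 1 match, Nfkb2, Rel, Nfkbia, Nfkbie and Tnfaip3, and overlapping matches were joined. Counted the same way, with any window of a gene, 9.55% of 27025 symbols held a match. The following windows are shown 5′ to 3′ on the strand of the gene because they carry a match, which is in capitals.
Nfkbia: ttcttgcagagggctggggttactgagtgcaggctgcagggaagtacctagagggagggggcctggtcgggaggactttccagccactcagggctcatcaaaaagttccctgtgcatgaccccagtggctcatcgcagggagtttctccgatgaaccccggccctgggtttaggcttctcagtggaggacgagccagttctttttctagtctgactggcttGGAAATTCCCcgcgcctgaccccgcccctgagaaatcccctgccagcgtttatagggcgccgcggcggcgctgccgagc
Tnfaip3: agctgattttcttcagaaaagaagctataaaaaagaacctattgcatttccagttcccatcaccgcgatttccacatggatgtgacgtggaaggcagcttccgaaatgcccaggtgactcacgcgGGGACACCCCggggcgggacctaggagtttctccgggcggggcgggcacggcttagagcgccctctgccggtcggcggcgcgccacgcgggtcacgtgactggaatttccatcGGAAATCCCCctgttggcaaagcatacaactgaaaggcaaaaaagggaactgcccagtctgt
Nfkb2: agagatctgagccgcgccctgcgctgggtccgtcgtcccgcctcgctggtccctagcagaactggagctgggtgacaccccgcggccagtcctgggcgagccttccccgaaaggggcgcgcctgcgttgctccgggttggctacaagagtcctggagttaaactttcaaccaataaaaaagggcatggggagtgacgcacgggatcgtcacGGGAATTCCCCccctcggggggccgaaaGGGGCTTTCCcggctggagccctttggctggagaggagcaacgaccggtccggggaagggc
Rel: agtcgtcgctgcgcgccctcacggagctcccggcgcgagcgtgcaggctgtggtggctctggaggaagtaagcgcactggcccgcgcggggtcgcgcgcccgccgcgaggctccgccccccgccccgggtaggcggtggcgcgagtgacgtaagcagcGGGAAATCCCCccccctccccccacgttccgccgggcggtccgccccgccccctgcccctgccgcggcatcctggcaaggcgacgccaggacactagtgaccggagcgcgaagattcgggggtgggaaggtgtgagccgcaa
Nfkbie: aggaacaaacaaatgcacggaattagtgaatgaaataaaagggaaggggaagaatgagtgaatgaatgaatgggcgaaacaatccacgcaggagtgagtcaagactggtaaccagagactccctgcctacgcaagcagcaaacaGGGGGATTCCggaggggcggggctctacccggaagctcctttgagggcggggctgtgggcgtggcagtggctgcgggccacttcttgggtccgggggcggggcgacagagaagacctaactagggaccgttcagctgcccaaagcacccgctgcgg
The windows are chr12:55492598-55492897 for Nfkbia, chr10:19015361-19015660 for Tnfaip3, chr19:46304487-46304786 for Nfkb2, chr11:23770920-23771219 for Rel and chr17:45555450-45555749 for Nfkbie. Nfkbia, Tnfaip3 and Rel are on the minus strand, and the others are on the plus strand.

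In Nfkbia the match began at -29, with the start base as 0, and on the opposite strand it reads GGGAATTTCC. In Tnfaip3 matches began at -125 and -12, and the latter reads GGGGATTTCC on the opposite strand. Nfkb2 held a palindromic GGGAATTCCC at -39 with an overlapping match at -38, and GGGGCTTTCC at -11. Another Nfkb2 window, at chr19:46305445-46305744, held GGAATGTCCC at -236 and GGGACTTTCC at 10. In Rel the matches at -92 and -91 overlapped, and in Nfkbie GGGGGATTCC began at -106. A further Nfkb2 window, at chr19:46305680-46305979 and overlapping the last, held GGGACTTTCC at -225. The windows of Birc3, Traf1 and Rela held no match to these letters, nor did another Tnfaip3 window, at chr10:19011914-19012213. A match is a description of letters and not evidence of binding in these cells. Of the genes with a match, Nfkbia and Nfkb2 were called lower with TGF-β1, and Rel, Nfkbie and Tnfaip3 were not called. Of those without a match, Birc3 and Traf1 were called lower, Traf1 in the fit without the filter, and Rela was not called. Over all genes tested 17.9% were called lower.

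The next question was what M-MDSC supernatant did to the genes in the presence of TGF-β1. Relb was called higher than with TGF-β1 alone, and was the only call among the 9 genes tested, or 11.1%, where 4.78% of all genes tested were called and 2.83% were called higher. At an unadjusted p-value under 0.05 there were 2, Relb and Nfkbia, against 16.7% of all genes tested. The M-MDSC supernatant libraries lay wholly above the TGF-β1 libraries for 3 of the 9, Relb, Nfkbia and Birc3, as they did for 13.4% of all genes tested. The median log2 fold change of the 9 was 0.19, against -0.013 over all genes tested. The comparison shares its TGF-β1 libraries with that of TGF-β1 against untreated MSCs.

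Relb was at 2.11, 2.39 and 2.29 FPKM with M-MDSC supernatant, all above the highest TGF-β1 library at 1.70 FPKM and within the range of the untreated libraries or just below it. The log2 fold change was 0.59 (standard error 0.14, edgeR adjusted p = 0.0455), a 1.501-fold rise. The call rested on every library but 1. It was also lost without the filter, with 2 groups per fit and with the replicate block, 8 of 15 alternative settings in all. The adjusted p was 0.0413 without TGF-β1 replicate 1, but 0.121 and 0.124 without TGF-β1 replicates 2 and 3, and 0.0730, 0.134 and 0.120 without M-MDSC supernatant replicates 1, 2 and 3, with log2 fold changes between 0.49 and 0.70.

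Nfkbia was at 8.91, 6.97 and 7.47 FPKM with M-MDSC supernatant, between the TGF-β1 and the untreated libraries and overlapping neither. The log2 fold change of 0.35 (standard error 0.098) missed the threshold in edgeR (adjusted p = 0.0814) and passed it in DESeq2 (adjusted p = 0.0202). Birc3 was at 1.39, 1.28 and 1.35 FPKM, above all TGF-β1 libraries, with a log2 fold change of 0.22 (95% interval -0.028 to 0.46, edgeR adjusted p = 0.365). Traf1 had 99, 73 and 85 counts, 0.130, 0.0985 and 0.109 FPKM, against 28 to 71 counts with TGF-β1 alone. All 3 libraries were above the TGF-β1 libraries, but the change was not called (log2 fold change 0.85, standard error 0.30, edgeR adjusted p = 0.297, no filter, where 2.1% of genes were called).

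Tnfaip3 was at 5.94, 2.25 and 5.84 FPKM with M-MDSC supernatant, with replicate 2 below all untreated libraries and replicates 1 and 3 above them (log2 fold change 0.70, 95% interval -0.39 to 1.79). Nfkbie was also uneven, at 1.14, 1.71 and 2.296 FPKM. Among the subunits, Rela was at 28.4, 27.1 and 27.8 FPKM and Rel at 1.29, 1.02 and 1.35 FPKM. Neither was called, with log2 fold changes of -0.13 (95% interval -0.36 to 0.098) for Rela and -0.23 (-0.51 to 0.053) for Rel. Nfkb1 and Nfkb2 had log2 fold changes of 0.078 and -0.0043, and the sign of the latter turned in 9 of 15 alternative settings.

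With G-MDSC supernatant, Relb and Nfkbia were called higher than with TGF-β1 alone, and Traf1 was called in the fit without the filter. The calls were 2 of the 9 genes tested, or 22.2%, where 5.56% of all genes tested were called and 3.1% were called higher. At an unadjusted p-value under 0.05 there were 3 genes, with Birc3 as the third, against 17.2% of all genes tested. The libraries lay wholly above those of TGF-β1 for 4 of the 9, Relb, Nfkbia, Birc3 and Nfkb2, against 13.2% of all genes tested. The median log2 fold change of the 9 was 0.12, against -0.014 over all genes tested. The TGF-β1 libraries are again those of the comparisons above.

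Relb was at 2.56, 2.35 and 2.44 FPKM with G-MDSC supernatant, 93.3% of the untreated mean, and within the untreated range. Relative to the TGF-β1 libraries this was a log2 fold change of 0.70 (standard error 0.14, edgeR adjusted p = 0.0171). Without TGF-β1 replicates 2 or 3 or G-MDSC supernatant replicate 1 the adjusted p was 0.0569, 0.0549 and 0.0648, and in the other leave-outs it stayed under the threshold. Nfkbia was at 8.47, 8.06 and 8.51 FPKM, above all TGF-β1 and below all untreated libraries, at 70.9% of the untreated mean. Its log2 fold change was 0.45 (standard error 0.098, edgeR adjusted p = 0.0232). The adjusted p was 0.0606 without TGF-β1 replicate 3, 0.0982 without replicate 2, and 0.0791, 0.0512 and 0.0683 without G-MDSC supernatant replicates 1, 2 and 3, with log2 fold changes between 0.40 and 0.51 over all leave-outs.

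Traf1 had 164, 118 and 106 counts with G-MDSC supernatant, 0.195, 0.148 and 0.131 FPKM. The values were above all TGF-β1 and below all untreated libraries, at 48.1% of the untreated mean. Traf1 had a log2 fold change of 1.32 (standard error 0.30, edgeR adjusted p = 0.0472, no filter), where 2.58% of the genes in that fit were called. The adjusted p was 0.144 and 0.0958 without TGF-β1 replicates 2 and 3 and 0.177, 0.106 and 0.0644 without G-MDSC supernatant replicates 1, 2 and 3. The call was also lost with 2 groups per fit (adjusted p = 0.197) and with limma on log2(FPKM + 1) (adjusted p = 0.0656), 7 of 14 alternative settings in all. Birc3 was at 1.41, 1.503 and 1.68 FPKM, above every TGF-β1 library (log2 fold change 0.40, standard error 0.11). It missed the threshold in edgeR (adjusted p = 0.0616) and passed it in DESeq2 (adjusted p = 0.0201).

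Tnfaip3 was at 2.40, 6.24 and 6.83 FPKM with G-MDSC supernatant, replicate 1 being below all untreated libraries, and the log2 fold change was 0.84 (95% interval -0.25 to 1.93). Over the 12 libraries Tnfaip3 was between 1.78 and 3.20 FPKM in 7 and between 4.75 and 6.83 FPKM in 5, the latter being TGF-β1 replicate 1, M-MDSC supernatant replicates 1 and 3 and G-MDSC supernatant replicates 2 and 3. In counts the split was as plain, with 1154 to 2071 against 3082 to 4443. The subunits Rela, Nfkb1, Nfkb2 and Rel had log2 fold changes of -0.059, 0.040, 0.078 and 0.12 with G-MDSC supernatant, and none was called, with 95% intervals that stayed between -0.29 and 0.40. Nfkbie was at 1.57, 0.828 and 2.01 FPKM.

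**Figure D3:**
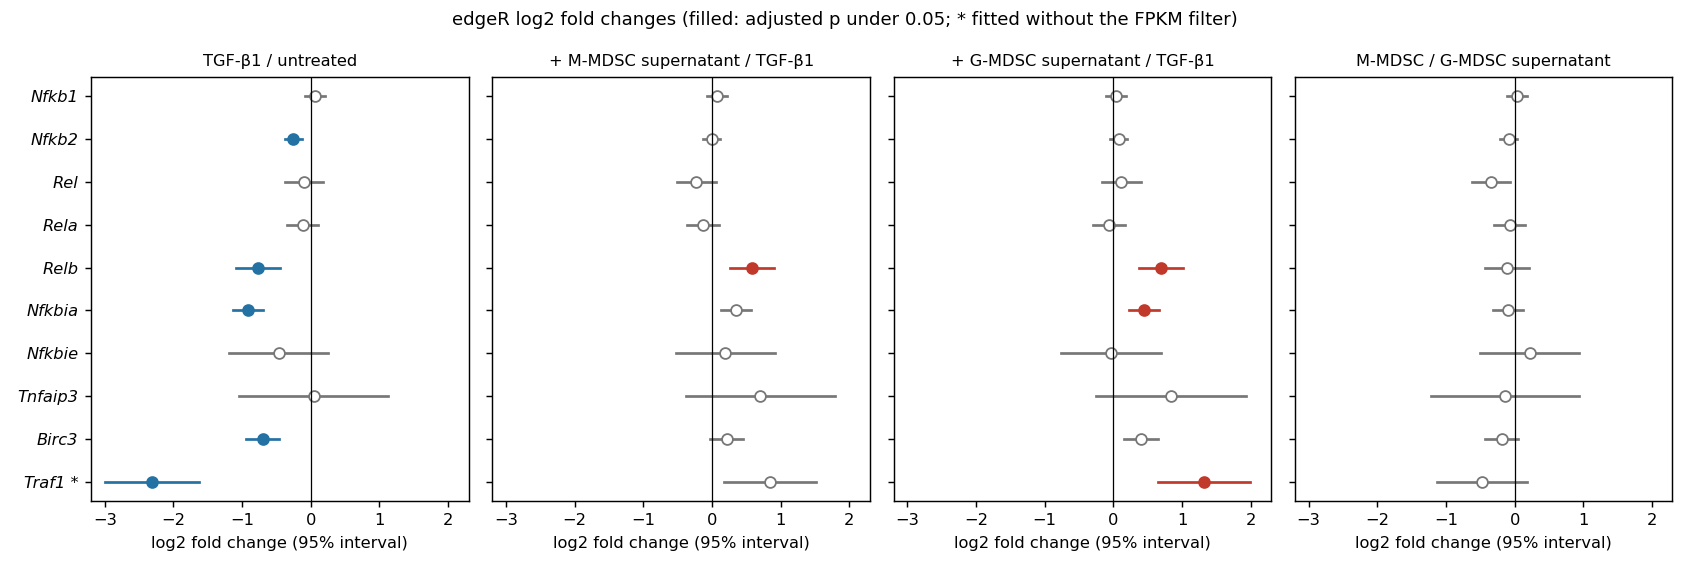
edgeR log2 fold change with its 95% interval (horizontal axis) of each of the 10 genes (vertical axis) in the 4 comparisons, filled where the adjusted p-value is under 0.05, with Traf1 from the fit without the filter. Traf1, Nfkbia, Relb, Birc3 and Nfkb2 are lower with TGF-β1, Relb is higher with either supernatant, Nfkbia and Traf1 are higher with G-MDSC supernatant, and no gene is filled between the supernatants.

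The supernatants were then compared directly. edgeR called 0 of the 9 genes, DESeq2 and limma also called 0, and 1 gene, Rel, had an unadjusted p-value under 0.05, where 0.125% of all genes tested were called and 6.33% had such a p-value. Rel was at 1.22 ± 0.172 FPKM in the M-MDSC group against 1.55 ± 0.0721 FPKM in the G-MDSC group (SD, n = 3 each), a log2 fold change of -0.35 (95% interval -0.63 to -0.065, edgeR adjusted p = 0.670). For Rel and Birc3 the M-MDSC libraries lay wholly below the G-MDSC libraries, as they did for 6.03% of all genes tested. A missed threshold does not show that the supernatants act alike. The interval of the difference was -0.32 to 0.12 for Nfkbia, -0.43 to 0.21 for Relb, -0.43 to 0.054 for Birc3 and -1.13 to 0.18 for Traf1, the last from the fit without the filter, where 0.0419% of genes were called. For Nfkb1, Nfkb2 and Rela it was -0.11 to 0.18, -0.21 to 0.041 and -0.30 to 0.16. For Nfkbie and Tnfaip3 it was too wide to read, -0.50 to 0.95 and -1.22 to 0.95.

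The other genes of the pathway were taken from 5 lists by role, 63 genes in all, of which 54 passed the filter. With TGF-β1, 20 were called lower and 10 higher, or 37% and 18.5%, against 17.9% and 16.1% of all genes tested. With M-MDSC supernatant 9 were called higher, or 16.7% against 2.83% of all genes tested, and 0 lower. With G-MDSC supernatant 14 were called higher, or 25.9% against 3.1%, and 2 lower. Of the 54, 44 had at least 1 FPKM in all 12 libraries, and of these 13 were called lower and 8 higher with TGF-β1, 3 higher and 0 lower with M-MDSC supernatant, and 8 higher and 2 lower with G-MDSC supernatant. The genes that passed through a single high group had to differ, and the counts over all 54 are read with that limit. The lists were also chosen with earlier results of these data known. The shares here and below are therefore not independent of these data.

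Among 11 receptors, 9 were tested, and TGF-β1 was followed by 4 lower and 1 higher call. The median log2 fold change was -0.56 over the 9 and -0.089 over the 5 with at least 1 FPKM in all libraries. The lower calls were 44.4% of the 9, against 17.9% of all genes tested. Of those 5 receptors 2 were called lower, and edgeR called 0 of these 5 with either supernatant, against 4.78% of all genes tested with M-MDSC and 5.56% with G-MDSC supernatant. Tnfrsf1a, the main receptor for tumour necrosis factor, fell from 61.0 to 39.6 FPKM (log2 fold change -0.56, standard error 0.041), and Tnfrsf1b from 10.97 to 6.75 FPKM (-0.64, standard error 0.057). Il1r1, the interleukin-1 receptor, fell from 1.37 to 0.596 FPKM, but reached 1 FPKM in the untreated libraries alone and passed the filter through them. Tlr3, a sensor of double-stranded RNA, fell from 1.08 to 0.434 FPKM. The toll-like receptor gene Tlr2 was the one called higher. Tlr3 and Tlr2 were called higher with both supernatants, 22.2% of the 9 against 2.83% and 3.1% of all genes tested. Neither had at least 1 FPKM in all libraries. Tlr3 was at 0.382 to 0.480 FPKM with TGF-β1 alone, and Tlr2 at 0.738 to 0.802 FPKM untreated. Tlr3 reached 2.17 FPKM with M-MDSC and 1.54 FPKM with G-MDSC supernatant (log2 fold changes 2.29 and 1.79), and Tlr2 rose from 1.15 to 1.65 and 1.64 FPKM.

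All 15 adaptors and ubiquitin ligases were tested, and 3 fell and 3 rose with TGF-β1, 20% each way, near the 17.9% and 16.1% of all genes tested. Myd88, the adaptor of the interleukin-1 and most toll-like receptors, fell from 10.1 to 7.35 FPKM (log2 fold change -0.40), Ticam1, the adaptor of Tlr3, from 5.74 to 4.38 FPKM (-0.33) and the kinase gene Irak4 from 3.04 to 2.298 FPKM (-0.35). Traf5 rose from 2.01 to 2.83 FPKM, and Traf6 and Irak1 were also called higher. With supernatant Myd88 was called higher in both groups, at 10.1 FPKM with M-MDSC and 9.92 FPKM with G-MDSC supernatant (log2 fold changes 0.43 and 0.41). Traf5 and Irak1 fell with G-MDSC supernatant, by log2 fold changes of -0.48 and -0.31. Of the 15, 1 was called with M-MDSC and 3 with G-MDSC supernatant, where 4.78% and 5.56% of all genes tested were called.

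Of 7 kinases, 6 were tested, and with TGF-β1 1 was called lower and 2 higher. These were 16.7% and 33.3%, against 17.9% and 16.1% of all genes tested. Map3k14, which starts the noncanonical route, fell with TGF-β1 from 5.02 to 2.89 FPKM (log2 fold change -0.74, standard error 0.078, edgeR adjusted p = 2.94e-05). The catalytic IκB kinase genes Chuk and Ikbkb rose, from 11.8 to 13.3 FPKM and from 2.05 to 2.23 FPKM (log2 fold changes 0.23 and 0.18). edgeR called 0 of the kinases with either supernatant, with 0 at an unadjusted p-value under 0.05 for M-MDSC and 1 for G-MDSC supernatant. Of all genes tested 4.78% and 5.56% were called and 16.7% and 17.2% had such a p-value, so that 0 of 6 is near the background.

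Of 10 other inhibitors and IκB proteins, 9 were tested, and 3 fell and 1 rose with TGF-β1, or 33.3% and 11.1%, against 17.9% and 16.1% of all genes tested. Bcl3, an IκB-like coactivator, fell from 1.61 to 0.473 FPKM (log2 fold change -1.69), but passed the filter through the untreated libraries. Of the 8 genes with at least 1 FPKM in all libraries 2 fell and 1 rose. Tnip1, the binding partner of the Tnfaip3 product, fell from 8.07 to 5.21 FPKM (-0.57) and the deubiquitinase gene Cyld from 4.65 to 3.21 FPKM (-0.48). Zc3h12a, which encodes an RNase that degrades cytokine mRNA, rose from 1.09 to 2.03 FPKM. Nfkbiz encodes a nuclear IκB protein needed for a part of the NF-κB targets. It was at 4.78 to 5.13 FPKM in untreated libraries, 5.16 to 6.12 FPKM with TGF-β1, 6.04 to 7.14 FPKM in the M-MDSC supernatant group and 9.21 to 9.53 FPKM in the G-MDSC supernatant group. The G-MDSC libraries were above all others. Nfkbiz and Zc3h12a were called higher with G-MDSC supernatant (log2 fold changes 0.72 and 0.62), 22.2% of the 9 against 3.1% of all genes tested. None of the 9 was called with M-MDSC supernatant by edgeR, against 4.78% of all genes, and 2 had an unadjusted p-value under 0.05, against 16.7% of all genes.

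Of 20 target genes, 15 were tested, and 10 of these had at least 1 FPKM in all 12 libraries. Over the 10 the median log2 fold change was -0.79 with TGF-β1, 0.26 with M-MDSC and 0.25 with G-MDSC supernatant, with 5 called lower and 2 higher in the first comparison and 2 and 5 called higher in the others. Over all 15, which include genes that passed the filter through a high group, the medians were -1.26, 0.55 and 1.09. Of the 15, 9 were called lower with TGF-β1 and 3 higher, or 60% and 20%, against 17.9% and 16.1% of all genes tested. The chemokine genes Ccl2 and Ccl7 fell from 61.6 to 12.02 FPKM and from 27.4 to 5.72 FPKM, Cxcl10 from 3.67 to 0.552 FPKM, and Csf1, the macrophage growth factor, from 76.3 to 30.9 FPKM. Ptgs2, Il6 and Ccl20 were called higher, Ccl20 reaching 1 FPKM with G-MDSC supernatant alone. With M-MDSC supernatant 6 of the 15 rose, or 40% against 2.83% of all genes tested, and with G-MDSC supernatant 9 rose, or 60% against 3.1%, and 0 fell with either. Ccl2 was at 26.1 and 33.2 FPKM with M-MDSC and G-MDSC supernatant (log2 fold changes 1.10 and 1.44, edgeR adjusted p = 1.26e-06 and 1.59e-07). With M-MDSC supernatant Cxcl10 rose from 0.552 to 1.60 FPKM, and Ccl7 and Cxcl5 rose by 0.98 and 1.56 on the log2 scale. Lif, Cxcl1 and Cxcl5 rose with G-MDSC supernatant by 1.09, 2.58 and 2.76 on the log2 scale.

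**Figure D4:**
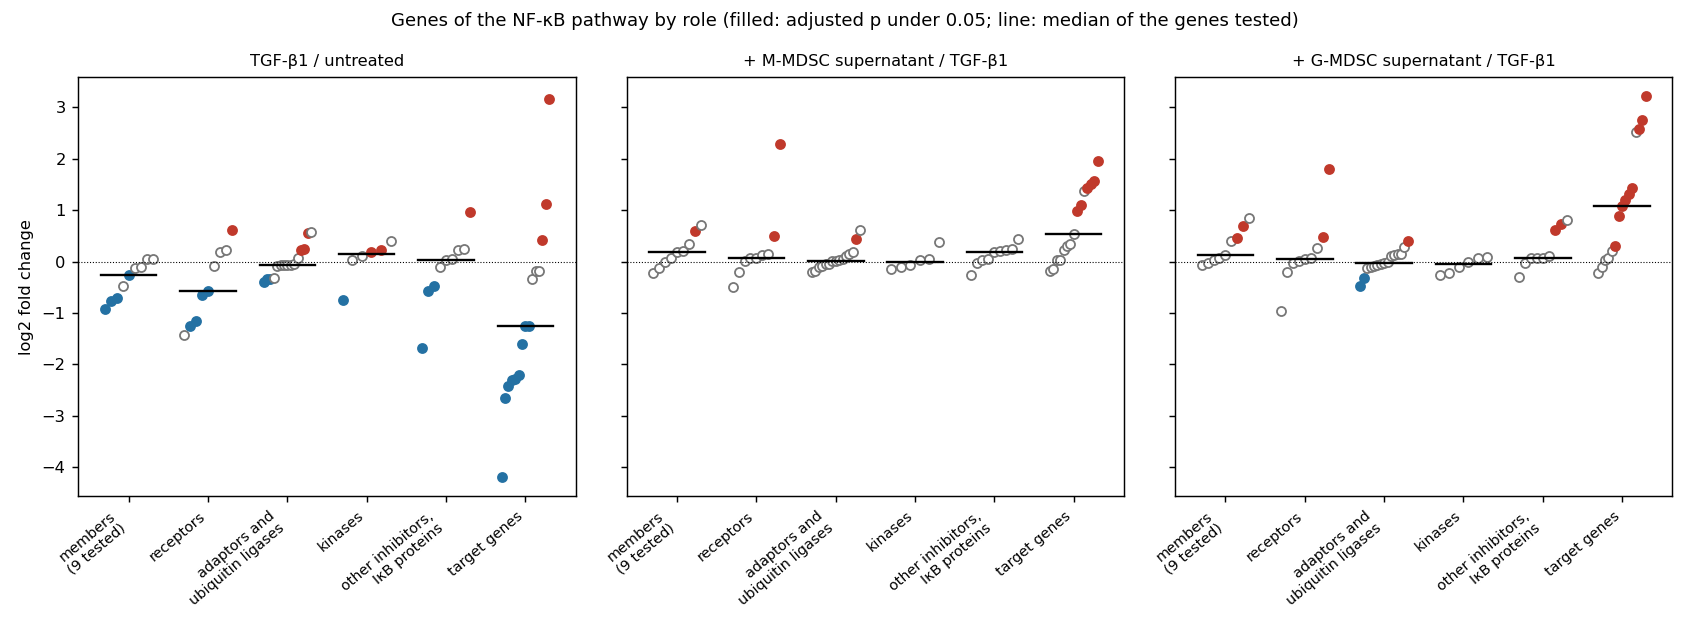
edgeR log2 fold changes (vertical axis) of the tested genes of the pathway by role (horizontal axis) in 3 comparisons, filled where the adjusted p-value is under 0.05, with a line at the median of each list. The medians of the 15 target genes, -1.26, 0.55 and 1.09, are -0.79, 0.26 and 0.25 over the 10 with at least 1 FPKM in all libraries, and no kinase is filled with either supernatant.

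Interferon-stimulated genes moved with the same groups. Of 10 such genes 9 were tested, and all 9 were called lower with TGF-β1 and all 9 higher with each supernatant, where 17.9% of all genes tested were called lower with TGF-β1 and 2.83% and 3.1% higher with M-MDSC and G-MDSC supernatant. Of the 9, 5 had at least 1 FPKM in all 12 libraries. The summed level of the 10 was 72.0 to 85.5 FPKM untreated, 17.7 to 20.0 FPKM with TGF-β1, 312 to 328 FPKM in the M-MDSC supernatant group and 197 to 207 FPKM in the G-MDSC supernatant group. The means of Nfkbia, Birc3 and Traf1 with supernatant were 34.3% to 79.7% of the untreated mean, and those of Relb were 86.3% and 93.3%. Relb with either supernatant and Birc3 with G-MDSC supernatant overlapped the untreated libraries. The part of the interferon response in the changes of the NF-κB genes was not tested.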

How the data were processed

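Poly(A) RNA of 12 libraries was prepared with dUTP in the second strand and read in pairs. Per the study's methods, reads were checked with fastp, aligned to GRCm38 with HISAT2, assembled with StringTie and merged with gffcompare, and the submitters' processing notes name cutadapt 1.9, HISAT2 2.0.4 and StringTie 1.3.4d. The authors deposited raw counts per gene and library, by a counting tool and strand setting not given in the sources used here. The authors deposited FPKM beside them, where genes with a count of 0 carry 0.0001, read here as 0. Of nonzero counts up to 12, 44.3% were multiples of 4.

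Counts were scaled by TMM and tested with edgeR 4.0.16 (R 4.3.3) in 1 fit over the 4 groups, and standard errors were derived from the F statistic. Alternatives were RLE scaling, no filter, filterByExpr, DESeq2 1.42.0, limma 3.58.1 on log2(FPKM + 1) and log2(FPKM + 0.1), 2 groups per fit, a replicate block, counts divided by 4, the study's call rule and leaving out each replicate. The edgeR step was tested on simulated data. No pair of libraries of a group agreed within counting noise (chi-square per degree of freedom 61.9 to 85.3), so none was treated as a copy, which does not show that they are separate cultures. All 10 NF-κB genes were named and, of each pathway list, called genes, up to 4 per comparison with values, by lowest adjusted p. The members and lists were chosen with earlier results of these data known.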

Additional observations from a re-analysis of the deposited data

Results flagged for a closer look

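For 2 of the 54 genes tested in the pathway lists, or 3.7% against 0.125% of all genes tested, the change from TGF-β1 alone differed between the supernatants by the direct test. These lists were chosen with earlier results of these data known. Nfkbiz was at 6.43 ± 0.614 FPKM with M-MDSC and 9.40 ± 0.170 FPKM with G-MDSC supernatant (SD, n = 3 each), a log2 difference of -0.54 (edgeR adjusted p = 0.0325). Lif, which encodes a cytokine of the interleukin-6 family, was at 2.08 ± 0.171 and 3.58 ± 0.0338 FPKM, a log2 difference of -0.78 (edgeR adjusted p = 0.00324). Both were lower with M-MDSC supernatant in all 3 libraries than in any G-MDSC library. Neither gene was followed under the alternatives. Leaving out a replicate moved the number of genes called between the supernatants from 15 to between 9 and 47.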

How the results depend on the processing

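The calls of Nfkb2, Relb, Nfkbia, Birc3 and Traf1 with TGF-β1 against untreated MSCs were kept under all alternatives that use the adjusted p-value, and leaving out a replicate gave 4 calls each time among the 9 genes tested. Under the study's rule on fold and unadjusted p-value, 0 of the 9 were called in any comparison, and 810, 262, 261 and 66 of all genes tested were called in the order TGF-β1 against untreated, M-MDSC and G-MDSC supernatant against TGF-β1, and M-MDSC against G-MDSC supernatant. For M-MDSC supernatant the single call became 0 without the filter, 0 with 2 groups per fit, 0 with the replicate block and 2 with DESeq2, and 0 to 1 without a replicate. For G-MDSC supernatant leaving out a replicate gave 0 to 2. Between the supernatants every alternative gave 0.

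Same-numbered libraries did not deviate together (mean correlation -0.00384 over 18 pairs, 0 over 0.1). This correlation runs over all genes tested, and a pairing limited to some genes could be missed. With the replicate block Relb had a log2 fold change of 0.59 with M-MDSC supernatant (edgeR adjusted p = 0.0560). Over all genes tested, M-MDSC supernatant gave 574 calls, 351 with 2 groups per fit and 355 without TGF-β1 replicate 2. The supernatants differed in 15 genes, 121 with DESeq2, 38 with limma and a pseudocount of 1, 41 with 2 groups per fit, 8 with the block, 47 without M-MDSC replicate 3 and 9 without G-MDSC replicate 1.

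The sign turned only in changes that were not called, and the cause was not tested. For Tnfaip3 with TGF-β1 it was -0.088 and -0.15 by limma (pseudocounts 1 and 0.1), and from -0.55 (without TGF-β1 replicate 1) to 0.28 without a replicate, being -0.023 without untreated replicate 1. For Nfkb2 with M-MDSC supernatant it was 0.0062 with RLE scaling and with DESeq2, 0.0056 without the filter, 0.0067 with filterByExpr, 0.015 and 0.016 by limma, 0.0097 with 2 groups per fit, and -0.061 to 0.052 without a replicate. Leaving out a replicate gave Nfkbie -0.076 to 0.41 with M-MDSC supernatant and -0.33 to 0.25 with G-MDSC supernatant, and Rela -0.17 to 0.022 with G-MDSC supernatant. Between the supernatants it gave Nfkb1 -0.018 to 0.082, Rela -0.14 to 0.040, Nfkbie -0.060 to 0.52 and Tnfaip3 -0.48 to 0.20. Low counts limit Traf1 (28 to 276 per library).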
